A study of Mus musculus with 7 samples.

Results

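The genes described here encode the nuclear-encoded subunits of the respiratory chain and the ATP synthase, with the complex I assembly factors that share their names. They were chosen by symbol alone: those beginning with Nduf, Cox4 to Cox8, Uqcr or Atp5, plus Cyc1 and Cycs, without pseudogene and Gm symbols, and with a mean of at least 1 CPM (counts scaled to a common library size) over the 7 libraries. Of the 35013 symbols counted, 96 matched by name and 85 passed this minimum. Sorted into complexes by symbol, these were 38 of complex I, 8 of complex I assembly, 9 of complex III, 12 of complex IV, 17 of complex V and cytochrome c. The other 11 were Cox4i2, Cox6b2, Cox6c2, Cox7a1, Cox7b2, Cox8b, Cox8c, Ndufa4l2, Ndufa11b, Ndufb11b and Ndufs6b, and none of them had more than 13 counts in any library.

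The respiratory chain of the inner mitochondrial membrane passes electrons from NADH through complexes I, III and IV to oxygen and pumps protons as it does so, and the ATP synthase (complex V) uses the proton gradient to make ATP. Most of its subunits are encoded in the nucleus, and a small set that includes the membrane core of complex I, cytochrome b, the catalytic core of complex IV and a pair of ATP synthase subunits is encoded in mitochondrial DNA. In the pancreatic β-cell, ATP made from glucose by this pathway closes potassium channels and triggers insulin release.

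RNA of sorted β-cells was sequenced from 2 KO_db/db, 2 db/db and 3 db/+ mice, with 1 library for each mouse. KO_db/db mice had the RIP-Cre Herr transgene, Aldh1a3 fl/fl, the tdT fl/+ reporter and Lepr db/db, the background that makes db/db mice obese and diabetic. The paper reports fasting glucose in KO_db/db mice near that of db/+ mice. It also reports lower refed glucose and better glucose tolerance in KO_db/db than in db/db mice. The db/db mice differed from the KO_db/db mice in having Aldh1a3 fl/+, and the db/+ mice were lean controls with Aldh1a3 fl/+ and Lepr db/+. All 3 groups therefore carried Cre under an insulin promoter, the reporter and at least 1 floxed Aldh1a3 allele. Islets came from mice fasted for 16 h, the methods give 16 to 20 weeks of age and both sexes for animals not otherwise described, and the gate used to sort these libraries is not given in the sources used here.

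Aldh1a3, the gene deleted in KO_db/db mice, was measured at 4.97 and 7.89 CPM in KO_db/db, at 98.5 and 193.7 CPM in db/db and at 0.0730 to 0.589 CPM in db/+. Summed β-cell markers (12 genes, insulin included) were at 395500 to 443200 CPM in db/+, 201900 to 225300 CPM in db/db and 225900 to 298200 CPM in KO_db/db. Summed α-cell markers (7 genes) were at 1195 to 1771, 2823 to 3203 and 1384 to 1951 CPM in the same order, and ductal markers (6 genes) at 185.7 to 202.1, 290.3 to 432.3 and 303.9 to 347.4 CPM. The part of these shifts in the results that follow was not tested. δ-cell markers were at most 2332 CPM and macrophage markers at most 74.6 CPM. Acinar markers stood apart in KO_db/db, at 147000 CPM in mouse 1 and 12330 CPM in mouse 2, against 80.7 to 423.7 CPM in the other 5 libraries. Y-linked genes had 2911 counts in db/+ mouse 3 and 20 to 79 counts in the other 6 libraries. Total counts per library ran from 27496645 to 35852785, and all 85 genes were above 0 in every library.

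Relative to the bulk of genes, transcripts of the respiratory chain were lower in β-cells of mice of a db/db background than in those of lean mice. Scaled by TMM, which sets libraries level on the bulk of their genes, the sum of the 85 genes was 5604, 5791 and 5676 CPM in db/+, 4673 and 4457 CPM in db/db, and 4519 and 4387 CPM in KO_db/db, so that every library of a db/db background lay below every db/+ library. In db/db against db/+, 41 of the 85 genes (48.2%) were lower and 2 were higher, at an adjusted p (Benjamini-Hochberg over all genes) of 0.05 in the quasi-likelihood test of edgeR. Over all 13406 genes tested 18.0% were lower and 19.9% higher. The median log2 fold change of the 85 genes was -0.34, a level 1.27-fold lower, against 0.0064 over all genes tested, and 78 of the 85 fold changes were negative. CPM did not overlap between the groups for 64 genes that lay below db/+ and 5 that lay above, where 30.7% and 32.6% of all tested genes did so. In bulk libraries, fewer cells of a type and less RNA per cell cannot be told apart.

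**Figure D1:**
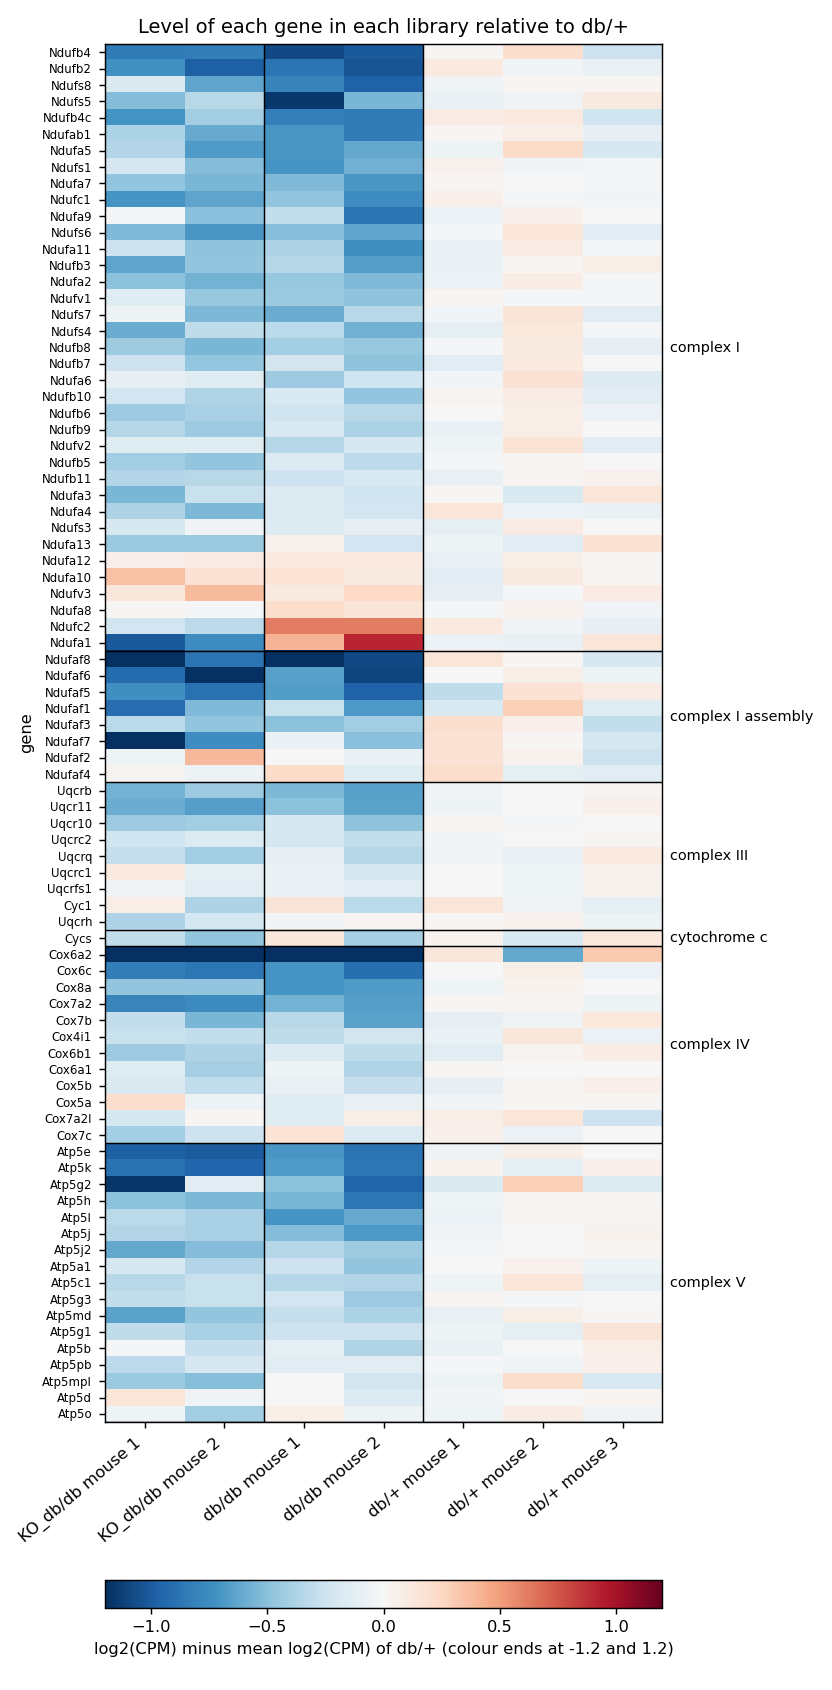
Level of single genes (rows, ordered by complex, with 1 of the 85 genes not shown) in each library (columns), as log2(CPM) minus the mean log2(CPM) of the 3 db/+ libraries; blue is lower and red is higher than db/+, and colours end at -1.2 and 1.2. Most rows are blue in the 4 libraries of KO_db/db and db/db mice, and Ndufa1 and Ndufc2 are the reddest rows in db/db.

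The direction of the whole set depended on how libraries were scaled. Insulin transcripts took 32.2 to 36.1% of the counts in db/+ and 21.8 to 24.4% in the other 4 libraries, and mitochondrial DNA-encoded transcripts took 12.1 to 21.3% in db/+ and 7.22 to 11.3% elsewhere. As a share of raw counts, the 85 genes made up 0.487, 0.506 and 0.496% in db/+, 0.561 and 0.548% in db/db, and 0.400 and 0.504% in KO_db/db. When libraries were scaled by total counts alone, the median of all tested genes moved to 0.50 in db/db against db/+ and that of the 85 genes to 0.15, and 16 of the 85 genes were called higher and 5 lower, against 44.5% and 5.97% of all genes. The median of the 85 genes minus that of all genes was -0.35 on the log2 scale by TMM, by the RLE factors and by total counts, and -0.354 with insulin, mitochondrial DNA-encoded, acinar and Reg genes left out of the totals. The fold changes that follow are by TMM, and so relative to the bulk of genes.

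**Figure D2:**
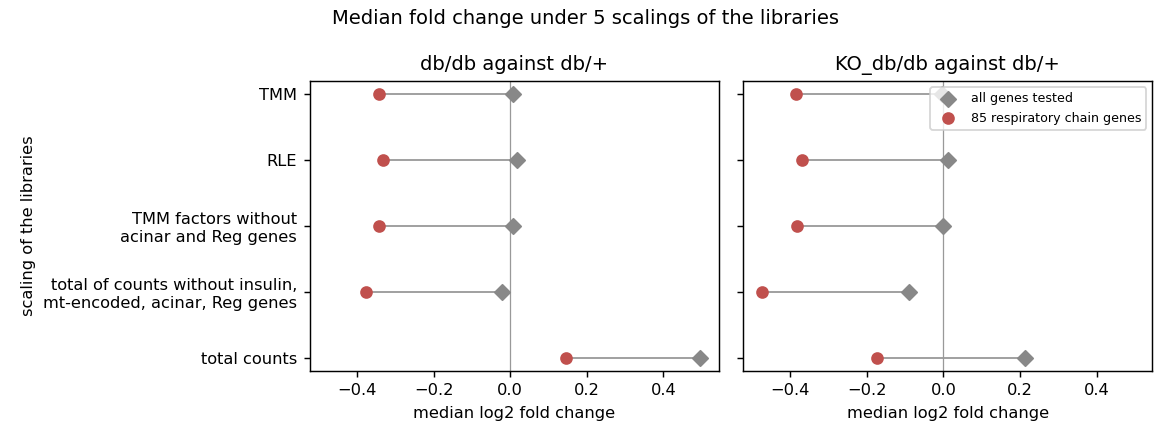
Median log2 fold change (horizontal axis) of the 85 respiratory chain genes (circles) and of all genes tested (diamonds) under 5 scalings of the libraries (vertical axis), for db/db and KO_db/db against db/+. By total counts the circle moves to 0.15 in db/db and to -0.17 in KO_db/db, while circle minus diamond stays between -0.354 and -0.349 in db/db and between -0.387 and -0.38 in KO_db/db.

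In KO_db/db against db/+, 47 of the 85 genes (55.3%) were lower and 0 were higher by edgeR's quasi-likelihood test, where 17.9% of 13228 tested genes were lower and 20.5% higher. At an unadjusted p under 0.05 there were 65 members, 2 of them higher, and the share of all genes at that p was not counted. DESeq2 called 0 members higher and 53 lower, where it called 20.4% and 17.3% of all genes. CPM of 67 genes lay wholly below db/+ and of 2 wholly above, where 32.5% and 31.7% of all genes did so. The median log2 fold change was -0.38, against -0.0034 over all genes, and became -0.17 by total counts, with 8 genes called lower, where 4.91% of all genes were. Without KO_db/db mouse 1, the library with the most acinar transcripts, 31 of the 85 genes were lower, where 9.42% of all genes were, and the median was -0.43. In db/db, where the acinar markers were at most 423.7 CPM, the median was -0.34. The db/db and KO_db/db comparisons share the same 3 db/+ libraries.

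**Figure D3:**
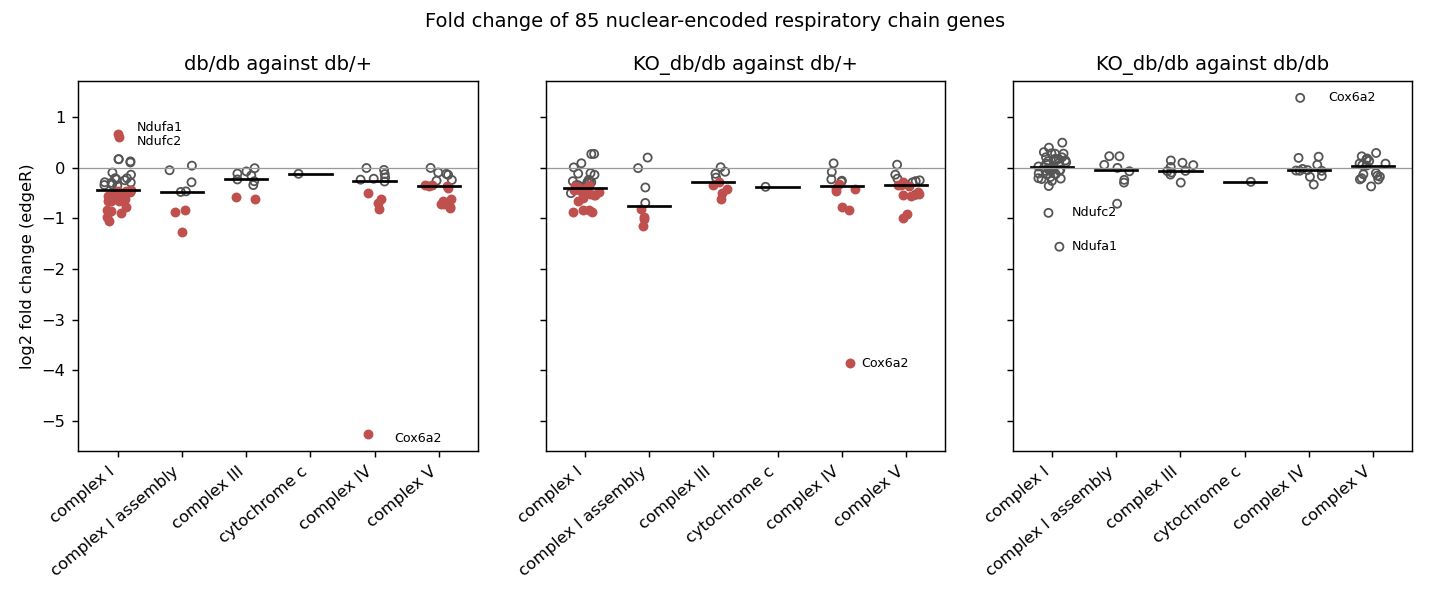
edgeR log2 fold change (vertical axis) of each of the 85 genes by complex (horizontal axis) in the 3 comparisons; filled points passed an adjusted p of 0.05, open points did not, and black lines are medians. Medians by complex lie between -0.12 and -0.47 in db/db against db/+, and between -0.28 and 0.04 in KO_db/db against db/db, where no point is filled.

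In complex I, the NADH dehydrogenase, 20 of 38 genes fell and 2 rose in db/db against db/+, with a median log2 fold change of -0.45, and 21 fell in KO_db/db against db/+, with a median of -0.40. Of all genes tested, 18.0% fell and 19.9% rose in db/db, and 17.9% fell in KO_db/db, by TMM. By total counts 2 complex I genes in db/db and 3 in KO_db/db were called lower, where 5.97% and 4.91% of all genes were. The core subunits carry the flavin and the iron-sulfur clusters. Ndufs8, which holds a pair of iron-sulfur clusters, was at 34.2, 35.5 and 35.9 CPM in db/+, 20.3 and 18.0 CPM in db/db, and 31.3 and 22.8 CPM in KO_db/db. Its db/db libraries lay below all others, and its log2 fold change against db/+ was -0.89 ± 0.12 (SE, adjusted p = 0.00208 by edgeR's quasi-likelihood test) in db/db and -0.38 ± 0.15 (adjusted p = 0.0817) in KO_db/db. The KO_db/db value was -0.63 and passed (adjusted p = 0.0183) without KO_db/db mouse 1, and was -0.18 (adjusted p = 0.293) without mouse 2.

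The core subunits Ndufs1, Ndufs7 and Ndufv1, the last of which binds NADH and the flavin, fell by 0.65, 0.47 and 0.48 on the log2 scale in db/db, of which the last 2 were 0.024 and 0.012 by total counts. The Ndufs7 call (adjusted p = 0.046) was kept in 5 of 13 other settings, and was lost without db/db mouse 1 (-0.34, adjusted p = 0.153) or any one of the db/+ mice (adjusted p = 0.0588 to 0.14). Their fold changes in KO_db/db, -0.35, -0.28 and -0.29, did not pass the test. Without KO_db/db mouse 1 they were -0.51, -0.53 and -0.45, and Ndufs1 and Ndufv1 passed (adjusted p = 0.0291 and 0.0377). Without KO_db/db mouse 2 they were -0.21, -0.066 and -0.15, and DESeq2 called Ndufs1 (adjusted p = 0.0421). Ndufs3 and Ndufv2 passed it in neither, with log2 fold changes of -0.14 and -0.29 in db/db and -0.11 and -0.14 in KO_db/db, all 4 of which turned positive by total counts.

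Of the 31 accessory subunits of complex I, which surround the core and are needed for its assembly and stability, 15 fell and 2 rose in db/db and 20 fell in KO_db/db. Of all genes tested, 18.0% fell and 19.9% rose in db/db, and 17.9% fell in KO_db/db. Ndufb2, a subunit of the membrane arm, was at 29.03, 26.2 and 25.3 CPM in db/+, 14.6 and 13.1 CPM in db/db, and 16.2 and 13.6 CPM in KO_db/db. It fell by 0.97 on the log2 scale in db/db (SE 0.13, adjusted p = 0.00254) and by 0.84 in KO_db/db (SE 0.13, adjusted p = 0.00414). Ndufa10, Ndufa12, Ndufa8 and Ndufv3 had positive log2 fold changes in both comparisons, at most 0.27 and none past the test.

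Ndufa1 and Ndufc2, both small accessory subunits of the membrane arm, went against the rest of the set in db/db mice. Ndufa1, an X-linked gene on the minus strand at chrX:37187588-37191163 (GRCm38), was at 76.9, 76.0 and 88.9 CPM in db/+, 106.7 and 151.7 CPM in db/db, and 40.03 and 47.7 CPM in KO_db/db. Every db/db library lay above db/+ and every KO_db/db library below it. Ndufa1 rose in db/db, with a log2 fold change of 0.67 (SE 0.17, adjusted p = 0.0215), and fell in KO_db/db, with one of -0.87 (SE 0.12, adjusted p = 0.00299). Without db/db mouse 2, the higher of the pair, the db/db fold change was 0.39 with an adjusted p of 0.0771, and without db/+ mouse 1 or mouse 2 its adjusted p was 0.0742 or 0.0729. Ndufc2, on the plus strand at chr7:97400003-97407802, was at 46.8, 42.2 and 40.3 CPM in db/+, 66.2 and 65.9 CPM in db/db, and 36.8 and 34.6 CPM in KO_db/db. It rose in db/db, with a log2 fold change of 0.60 (SE 0.11, adjusted p = 0.00637), and passed the test under each of 13 other settings, and in KO_db/db its log2 fold change against db/+ was -0.27 (SE 0.10, adjusted p = 0.0847).

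The promoters of this pair and of a gene each from complexes V and III with the largest fall in its complex among those with an entry, Atp5e and Uqcr11, are shown as 300 bases from 250 before to 50 after the RefSeq start (GRCm38.p6), 5′ to 3′ on the gene's strand. Capitals mark matches on either strand to the cores searched: GCGCATG for NRF1, a main regulator of respiratory genes, CCGGAAG for the ETS family that includes GABPA, AAGATGG for YY1 and GGGCGGG for SP1.
Ndufa1: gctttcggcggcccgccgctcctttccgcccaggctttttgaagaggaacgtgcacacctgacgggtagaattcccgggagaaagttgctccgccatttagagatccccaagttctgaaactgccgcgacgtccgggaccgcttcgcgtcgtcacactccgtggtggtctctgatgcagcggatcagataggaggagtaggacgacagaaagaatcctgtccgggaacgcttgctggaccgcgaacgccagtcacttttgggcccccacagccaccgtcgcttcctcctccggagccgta
Ndufc2: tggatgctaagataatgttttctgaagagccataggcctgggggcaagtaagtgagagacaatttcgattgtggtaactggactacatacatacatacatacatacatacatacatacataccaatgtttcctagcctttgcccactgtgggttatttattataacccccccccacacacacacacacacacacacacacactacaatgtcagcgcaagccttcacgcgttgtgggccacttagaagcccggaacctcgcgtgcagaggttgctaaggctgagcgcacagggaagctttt
Atp5e: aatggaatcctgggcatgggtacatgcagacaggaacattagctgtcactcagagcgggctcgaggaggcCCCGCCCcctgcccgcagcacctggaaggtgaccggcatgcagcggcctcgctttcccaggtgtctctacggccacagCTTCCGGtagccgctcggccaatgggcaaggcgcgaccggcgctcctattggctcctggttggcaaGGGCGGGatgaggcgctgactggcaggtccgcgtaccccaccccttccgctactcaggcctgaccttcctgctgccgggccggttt
Uqcr11: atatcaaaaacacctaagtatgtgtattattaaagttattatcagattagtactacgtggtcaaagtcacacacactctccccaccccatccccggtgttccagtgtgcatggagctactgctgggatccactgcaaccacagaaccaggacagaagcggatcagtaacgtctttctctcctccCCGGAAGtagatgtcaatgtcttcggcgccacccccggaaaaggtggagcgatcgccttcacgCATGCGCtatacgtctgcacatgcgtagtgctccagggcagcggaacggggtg
These windows are chrX:37191189-37191488 (minus strand) for Ndufa1, chr7:97399753-97400052 (plus strand) for Ndufc2, chr2:174464052-174464351 (minus strand) for Atp5e and chr10:80406772-80407071 (minus strand) for Uqcr11. The Ndufa1 window also holds the start of Rnf113a1, which runs the other way from chrX:37191245. Neither the Ndufa1 nor the Ndufc2 window held any of the 4 cores, and the window of Ndufb2, which fell, held none either. The GENCODE start of Ndufa1, at chrX:37191163, lies downstream of its window. That start and the bases after it were not searched. Of the 70 members with a promoter in the table, 21.4% held the NRF1 core, against 4.41% of 27025 promoters and 7.93% of the 10352 whose genes were tested. The YY1 core was in 17.1% of the members against 8.2% of the tested genes, the ETS core in 24.3% against 19.6%, and the SP1 core in 34.3% against 52.0%. The NRF1 core was in 21.9% of the 32 members that were lower in db/db and had a promoter entry, and in 21.1% of the other 38. The YY1 core was in 28.1% and 7.89% of the same groups, which is 9 and 3 genes. The ETS core was in 31.2% and 18.4% of them, and the SP1 core, the other way, in 25% and 42.1%. These differences were not tested.

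Among the 8 complex I assembly factors, which join subunits into modules and are not part of the finished enzyme, Ndufaf5, Ndufaf6 and Ndufaf8 fell in db/db, and these 3 and Ndufaf7 fell in KO_db/db. Of all genes tested, 18.0% fell in db/db and 17.9% in KO_db/db. Ndufaf8, a partner of Ndufaf5 that was picked here after its values were seen, was at 11.95, 11.02 and 9.46 CPM in db/+, 3.94 and 5.09 CPM in db/db, and 4.72 and 5.85 CPM in KO_db/db. Its log2 fold change was -1.27 ± 0.20 (SE, edgeR adjusted p = 0.00439) in db/db and -1.02 ± 0.19 (SE, edgeR adjusted p = 0.00729) in KO_db/db. Ndufaf7, a methyltransferase of complex I assembly, was at 14.8, 13.2 and 11.4 CPM in db/+, 12.5 and 9.25 CPM in db/db, and 5.38 and 7.84 CPM in KO_db/db. Only its KO_db/db libraries lay apart from db/+, with a log2 fold change of -0.97 ± 0.21 (SE, edgeR adjusted p = 0.0133) there and -0.29 ± 0.19 (SE, edgeR adjusted p = 0.283) in db/db. Without KO_db/db mouse 1 the KO_db/db value was -0.74 with an adjusted p of 0.0543.

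In complex III, which hands electrons from ubiquinol to cytochrome c, the members that passed the test by TMM were small subunits. The Rieske iron-sulfur protein Uqcrfs1 and cytochrome c1, Cyc1, had log2 fold changes of -0.12 and -0.07 in db/db and -0.08 and -0.12 in KO_db/db, none past the test by TMM and all 4 positive by total counts. By total counts Uqcrfs1 was called higher in db/db (0.375, edgeR adjusted p = 0.0169), where 44.5% of all genes were. Cycs, cytochrome c itself, was at 26.9, 23.1 and 28.6 CPM in db/+, 28.9 and 19.9 CPM in db/db, and 21.3 and 18.9 CPM in KO_db/db, with log2 fold changes of -0.12 (adjusted p = 0.649, and 0.37 by total counts) and -0.38 (adjusted p = 0.061) by edgeR. The KO_db/db value was -0.46 (adjusted p = 0.0489) without db/+ mouse 2. Of the 5 small subunits, 2 fell in db/db and all 5 in KO_db/db by TMM, where 18.0% and 17.9% of all genes fell. By total counts 0 of the complex III genes fell in either comparison, where 5.97% and 4.91% of all genes did. Uqcrb, a subunit beside cytochrome b, was at 74.0, 76.0 and 77.9 CPM in db/+, 52.2 and 48.3 CPM in db/db, and 51.3 and 56.3 CPM in KO_db/db. It fell by 0.61 on the log2 scale in db/db (SE 0.10, adjusted p = 0.00468) and by 0.49 in KO_db/db (SE 0.088, adjusted p = 0.00677). Uqcr11 fell by 0.58 and 0.62 on the same scale (adjusted p = 0.00722 and 0.00344 by edgeR).

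The largest change of the 85 genes was in complex IV, cytochrome c oxidase. The subunit VIa isoform known from heart and skeletal muscle, Cox6a2, was far lower on the db/db background than in lean mice. Cox6a2, on the minus strand at chr7:128205435-128206387 (GRCm38), was at 78.6, 46.4 and 88.9 CPM in db/+, 2.44 and 1.34 CPM in db/db, and 5.46 and 4.37 CPM in KO_db/db. The 3 groups did not overlap, and the lowest db/+ library was far above the highest of the other 4. The level was 38.5-fold lower in db/db, a log2 fold change of -5.27 ± 0.41 (SE, edgeR adjusted p = 0.000625), and 14.5-fold lower in KO_db/db, at -3.86 ± 0.32 (SE, edgeR adjusted p = 0.000759), and both passed the test under each of 13 other settings, total counts included. Of the 31-base words in Cox6a2 transcripts, 93.8% occur in no other gene.

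The ubiquitous isoform of the same subunit, Cox6a1, was at 88.8, 88.1 and 87.8 CPM in db/+, 84.4 and 68.7 CPM in db/db, and 80.0 and 67.1 CPM in KO_db/db. Its log2 fold changes of -0.22 (adjusted p = 0.188) and -0.26 (adjusted p = 0.0846) did not pass edgeR's test, and the first was 0.27 by total counts and -0.37 (adjusted p = 0.0444) without db/db mouse 1. Per kilobase of transcript, Cox6a2 was 42.6, 30.7 and 45.9% of the sum of both isoforms in db/+, 2.37 and 1.61% in db/db, and 5.42 and 5.18% in KO_db/db. The other tissue-restricted isoforms were at or near 0 in all groups. Cox4i2 had at most 2 counts in a library, Cox6b2 at most 4, Cox7a1 at most 13 and Ndufa4l2 at most 9, and Cox8b was at 0 in all 7 libraries, where 3 counts correspond to 0.0717 to 0.123 CPM.

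Of the 12 genes that their symbols place in complex IV, 5 were lower in db/db and 7 in KO_db/db by TMM, and 2 and 3 by total counts. Of all genes 18.0% and 17.9% were lower by TMM, and 5.97% and 4.91% by total counts. Cox6c, a small single-span subunit, was at 103.5, 109.3 and 98.5 CPM in db/+, 63.5 and 55.4 CPM in db/db, and 58.5 and 56.8 CPM in KO_db/db. It fell by 0.82 on the log2 scale in db/db (SE 0.11, adjusted p = 0.00256) and by 0.84 in KO_db/db (SE 0.089, adjusted p = 0.0013), and the db/+ libraries lay above all others. Cox7a2 and Cox8a, the isoforms of their subunits found in most tissues, fell by 0.62 and 0.70 in db/db and by 0.77 and 0.47 in KO_db/db. Cox4i1, Cox5a and Cox5b, nuclear subunits that regulate the enzyme, passed the test by TMM in neither comparison. Their log2 fold changes were -0.27, -0.13 and -0.19 in db/db, all 3 positive by total counts, and -0.28, 0.09 and -0.23 in KO_db/db. By total counts Cox5a was called higher in db/db (0.365, edgeR adjusted p = 0.0324), where 44.5% of all genes were. Ndufa4, which the symbol places in complex I and which is now known as a complex IV subunit, was lower in KO_db/db (log2 fold change -0.45, edgeR adjusted p = 0.0207), and counting it with complex IV gave 8 lower genes there.

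In the ATP synthase all 17 fold changes were negative in db/db against db/+, and 11 passed the test, while 10 passed in KO_db/db, by TMM. Of all genes 18.0% and 17.9% were lower by TMM. By total counts 0 and 2 of the 17 were lower, where 5.97% and 4.91% of all genes were. Atp5e, the epsilon subunit of the central stalk, was at 78.4, 85.5 and 81.2 CPM in db/+, 50.5 and 44.3 CPM in db/db, and 41.3 and 41.0 CPM in KO_db/db, with no overlap between the 3 groups. It fell by 0.80 on the log2 scale in db/db (SE 0.11, adjusted p = 0.00258) and by 0.98 in KO_db/db (SE 0.087, adjusted p = 0.000844). Atp5k, the e subunit at the interface of ATP synthase dimers, was at 37.2, 33.5 and 37.5 CPM in db/+, 22.6 and 19.8 CPM in db/db, and 19.4 and 18.6 CPM in KO_db/db, and fell by 0.78 (SE 0.12, adjusted p = 0.00422) and 0.92 (SE 0.10, adjusted p = 0.00161).

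In the catalytic head, Atp5b, the catalytic β subunit, was at 378.9, 399.2 and 421.6 CPM in db/+, 370.5 and 311.5 CPM in db/db, and 394.1 and 329.5 CPM in KO_db/db, with log2 fold changes of -0.24 (adjusted p = 0.177) and -0.14 (adjusted p = 0.451) by edgeR. Atp5a1 and Atp5c1, the α and γ subunits, fell by 0.37 and 0.36 on the log2 scale in db/db (adjusted p = 0.0474 and 0.0455), and were each called in 3 of 13 other settings, and were at -0.26 and -0.29 in KO_db/db, where neither passed. Atp5g1, Atp5g2 and Atp5g3 encode the same mature c-ring subunit. Atp5g3 fell by 0.34 on the log2 scale in db/db (adjusted p = 0.0456) and by 0.28 in KO_db/db (adjusted p = 0.0339). Atp5g1 passed the test in KO_db/db, at -0.34 (adjusted p = 0.0452), and was at -0.26 (adjusted p = 0.13) in db/db. Atp5g2, at 4.15 to 11.3 CPM over the 7 libraries, passed it in db/db, at -0.72 (adjusted p = 0.0492), and was at -0.54 (adjusted p = 0.229) in KO_db/db, where it was -1.17 and passed (adjusted p = 0.0289) without KO_db/db mouse 2 and was -0.12 without mouse 1. These c-ring calls were near the threshold: of 13 other settings, Atp5g3 was called in 5 in db/db and 3 in KO_db/db, Atp5g1 in 5 in KO_db/db and Atp5g2 in 4 in db/db. Leaving out db/db mouse 2 or any one of the db/+ mice ended the db/db calls of Atp5a1, Atp5c1, Atp5g2 and Atp5g3, leaving out db/db mouse 1 ended that of Atp5c1, and leaving out any one library ended the KO_db/db calls of Atp5g1 and Atp5g3, with values from -0.80 to -0.24 and from -0.39 to -0.26. The db/db values of Atp5g1, Atp5g3, Atp5a1, Atp5b and Atp5c1 were positive by total counts, and so was the KO_db/db value of Atp5b.

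**Figure D4:**
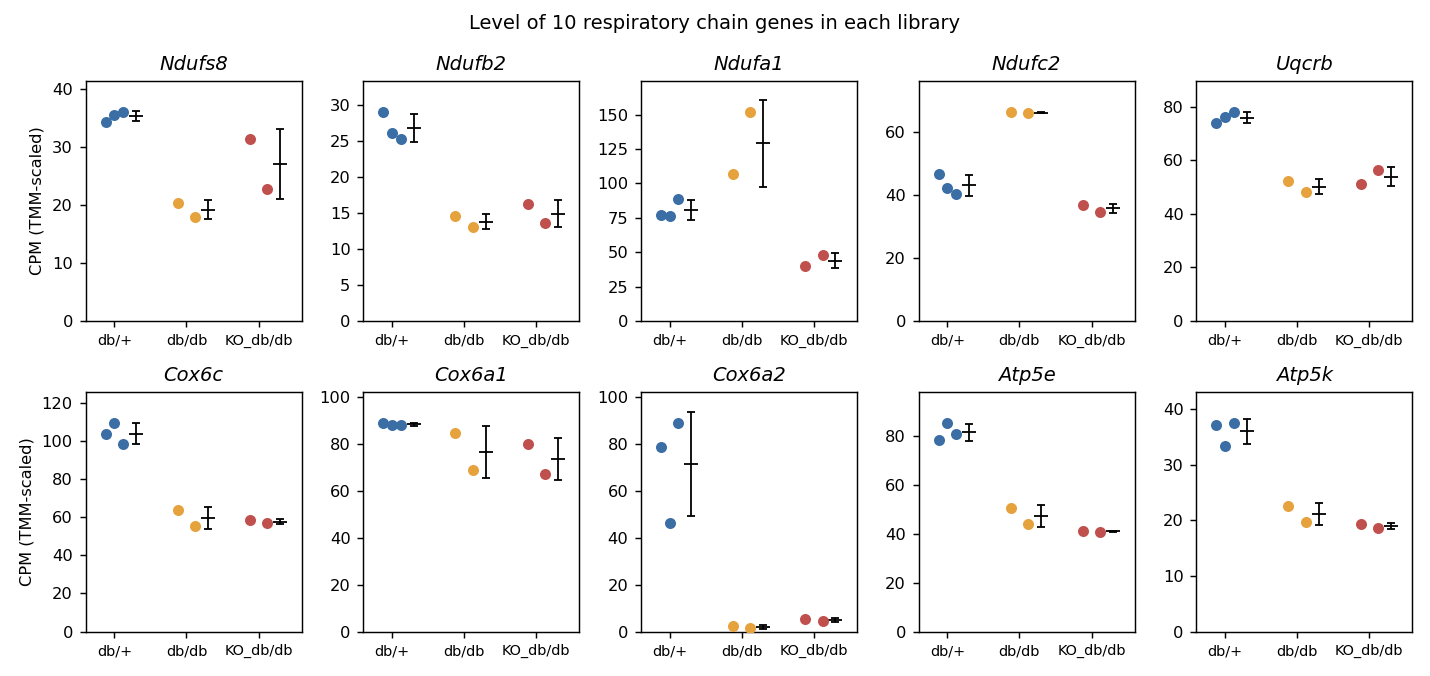
CPM (vertical axis, TMM-scaled, from 0) of 10 genes in each library; points are libraries, and the black mark beside them is the mean ± SD of the group (n = 3 db/+, 2 db/db, 2 KO_db/db). Cox6a2 is at 46.4 to 88.9 CPM in db/+ and at most 5.46 CPM elsewhere, and Ndufa1 and Ndufc2 are highest in db/db.

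Deletion of Aldh1a3 was compared within the mice of a db/db background. In KO_db/db against db/db, 0 of the 85 genes passed edgeR's quasi-likelihood test in either direction, where 0.319% of 13486 tested genes did (43 genes). At an unadjusted p under 0.05 there were 4 members, Ndufa1, Ndufc2 and Ndufaf7 lower and Cox6a2 higher, where 20.9% of all genes were. DESeq2 called 3 members (Ndufa1 and Ndufc2 lower, Cox6a2 higher), where it called 4.52% of genes lower and 5.28% higher, and edgeR without the filter on low counts called the same 3, where it called 3.90% lower and 4.10% higher. CPM did not overlap between the groups for 23 lower and 16 higher members, where 29.1% and 28.4% of all genes did not. The median log2 fold change was -0.02, 81 of the 85 fold changes lay within 0.5 of 0, and the median SE was 0.15. With 2 mice per group the test had little reach: Ndufa1, at -1.56 ± 0.22 (SE, edgeR adjusted p = 0.0766), and Ndufc2, at -0.89 ± 0.13 (SE, edgeR adjusted p = 0.0777), did not pass it, so the count of 0 does not show that levels were alike.

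Ndufa1 had the smallest adjusted p of the set in this comparison. It was 2.95-fold lower in KO_db/db, a log2 fold change of -1.56 ± 0.22 (SE, edgeR adjusted p = 0.0766), with both KO_db/db libraries below both db/db libraries. Under 12 other settings its log2 fold change ran from -1.80 to -1.28 and its adjusted p from 7.56e-09 to 0.174, with 5 of the 12 past the threshold. Ndufc2 was 1.86-fold lower, at -0.89 ± 0.13 (SE, edgeR adjusted p = 0.0777), with an adjusted p from 2.87e-05 to 0.237 and also 5 of 12 past the threshold. Cox6a2 was 2.6-fold higher, at 1.38 ± 0.40 (SE, edgeR adjusted p = 0.162), and 2 of the 12 settings called it, with an adjusted p from 0.0344 to 0.516. Its KO_db/db levels of 5.46 and 4.37 CPM remained below the lowest db/+ library, at 46.4 CPM. The acinar markers moved with this comparison, at 12330 and 147000 CPM in KO_db/db against 276.7 and 423.7 CPM in db/db, and their part in these differences was not tested; without KO_db/db mouse 1, Ndufa1 was at -1.44, Ndufc2 at -0.93 and Cox6a2 at 1.21 on the log2 scale.

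Subunits encoded in mitochondrial DNA were also lower in mice of a db/db background than in db/+ mice. All 13 fell in db/db against db/+, with a median log2 fold change of -1.63 and a range from -1.88 to -1.18, and 12 of 13 fell in KO_db/db, with a median of -1.11. Of all genes tested, 18.0% fell in db/db and 17.9% in KO_db/db. These values are by TMM, and calls of the 13 by total counts were not counted. The 13 took 12.1 to 21.3% of raw counts in db/+ and 7.22 to 11.3% in the other libraries. mt-Co1, which encodes the catalytic subunit of complex IV, was at 65770, 60410 and 37100 CPM in db/+, 14700 and 15120 CPM in db/db, and 20380 and 24420 CPM in KO_db/db. Within db/+, mouse 3 was lower than the other 2, with a median of -0.55 over the 13 genes against 0.26 and 0.16, while over the 85 nuclear genes it was at -0.0059 and the others at -0.030 and 0.029. The low-level mt-Nd6 went the other way within db/+, at 4.38, 4.27 and 7.72 CPM in mice 1, 2 and 3. In the other libraries mt-Nd6 was at 2.15 to 2.75 CPM. In KO_db/db against db/db all 13 fold changes were positive, with a median of 0.38, and 0 passed edgeR's adjusted test, with 1 of 13 at an unadjusted p under 0.05.

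**Figure D5:**
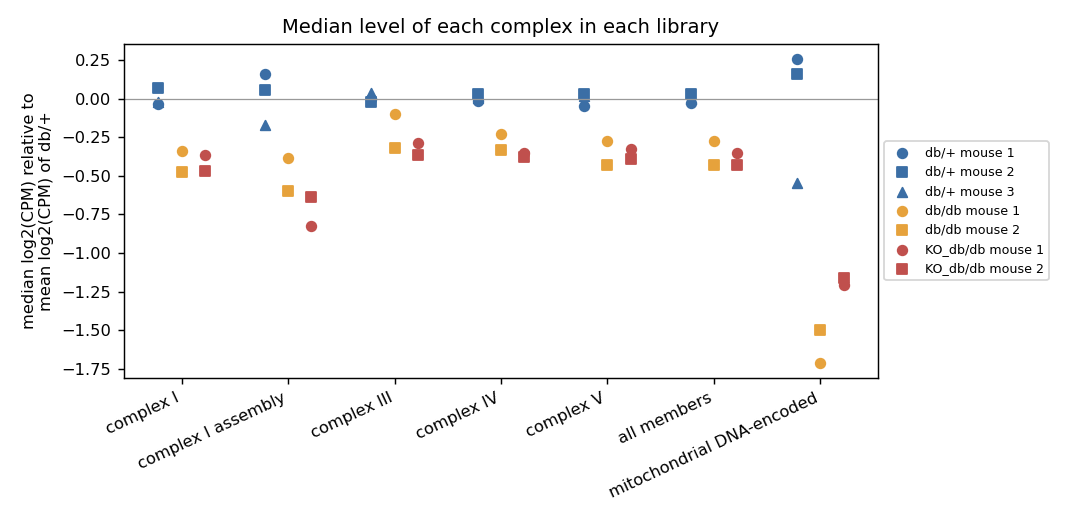
Median log2(CPM) of the genes of each complex, of the 85 nuclear genes and of the 13 mitochondrial DNA-encoded genes (horizontal axis) in each library, relative to the mean log2(CPM) of db/+ (vertical axis); each point is a library. All complexes are lower in the 4 libraries of KO_db/db and db/db mice, at -0.10 to -0.82, and the mitochondrial DNA-encoded genes are at -1.16 to -1.71.

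Other genes of the pathway were taken from lists chosen with earlier results of these data known. Of 8 genes of complex II, which enters electrons from succinate, and its assembly factors, 3 fell in db/db and 3 in KO_db/db. Over all genes tested 18.0% fell and 19.9% rose in db/db, and 17.9% fell in KO_db/db, each against db/+. Sdhc, which anchors complex II in the membrane, was at 76.2, 82.8 and 82.5 CPM in db/+, 45.8 and 39.7 CPM in db/db, and 56.2 and 49.0 CPM in KO_db/db. Of 42 further assembly factors 24 fell and 2 rose in db/db, among the lower ones Bcs1l, which inserts the Rieske protein, at a log2 fold change of -1.37, Cox17, a copper chaperone of complex IV, at -1.11, and Uqcc2, an assembly factor of complex III, at -1.11. The higher ones were Ttc19, a complex III factor, at 0.37, and Pet117, which was at 0 in all 3 db/+ libraries and at no more than 1.61 CPM elsewhere.

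Of 16 regulators of respiratory genes, 3 rose and 2 fell in db/db, and 4 rose and 1 fell in KO_db/db, where 19.9% of all genes rose and 18.0% fell in db/db and 20.5% and 17.9% in KO_db/db. The coactivators Ppargc1a and Ppargc1b and their relative Pprc1 were the higher ones in db/db. Ppargc1b was near the floor of 0.0717 to 0.123 CPM, at 0.246, 0.182 and 0.173 CPM in db/+ and 0.558 and 1.10 CPM in db/db. Ppargc1a was at 0.696, 0.401 and 0.762 CPM in db/+, 9.84 and 3.13 CPM in db/db, and 3.04 and 1.46 CPM in KO_db/db, 10.3-fold higher in db/db (log2 fold change 3.36 ± 0.55, SE, edgeR adjusted p = 0.00449). The db/db mice differed from each other, and both lay above all db/+ libraries. Tfb1m, a mitochondrial methyltransferase, and Polg, the mitochondrial DNA polymerase, were the lower ones in db/db, at -1.03 and -0.71. The values for the factors whose cores were searched in the promoters, Nrf1, Gabpa, Yy1 and Sp1, were 0.18, 0.13, 0.24 and 0.10 on the log2 scale in db/db, none past the test. In KO_db/db against db/+, Nrf1 (0.45, edgeR adjusted p = 0.0417) and Yy1 (0.33, edgeR adjusted p = 0.0326) were higher, and Gabpa and Sp1 were at -0.0096 and 0.11 and did not pass.

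Of 11 carriers and uncouplers beside the chain 2 rose and 4 fell in db/db, where 19.9% of all genes rose and 18.0% fell. Ucp2, an uncoupling protein of the inner membrane, was at 193.2, 224.5 and 225.8 CPM in db/+, 472.0 and 479.4 CPM in db/db, and 412.8 and 362.1 CPM in KO_db/db, higher by 1.14 (SE 0.12, adjusted p = 0.00112) and 0.86 (SE 0.13, adjusted p = 0.00357) on the log2 scale. Gpd2, the mitochondrial glycerol-3-phosphate dehydrogenase that feeds electrons into the chain, was at 116.3, 94.9 and 99.5 CPM in db/+, 60.5 and 49.8 CPM in db/db, and 52.8 and 63.5 CPM in KO_db/db, and fell by 0.92 and 0.82. Of 22 genes of the outer membrane, protein import and membrane shape 10 fell and 2 rose in db/db, the higher ones being Opa1, which fuses inner membranes, and Tomm70a, an import receptor.

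Some members share sequence with other genes. Of 83 members with transcripts in GENCODE M21, 49 had at least 90% of their 31-base words to themselves, and the median was 93.9%. Ndufb4c, which has no protein-coding transcript in GENCODE M21, shared all of its words with Ndufb4. Their counts, both lower in db/db and in KO_db/db against db/+, could therefore not be assigned apart. By its symbol Ndufb4c stays among the 38 complex I genes and the 31 accessory subunits, so the pair may count the same transcripts. Ndufaf2 had 34.9% of its words to itself. Ndufs5 had 645 counts in db/db mouse 1, against 721 to 1388 in the other libraries, and the pseudogene Ndufs5-ps had 320 counts in that library and 0 elsewhere, so the db/db fold change of Ndufs5, -0.83, is uncertain.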

How the data were processed

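Poly-A libraries were prepared by the authors with TruSeq chemistry and sequenced as paired ends. Per the submitters' processing notes, bcl2fastq 2.19, kallisto 0.44.0 and GRCm38 were used; the annotation release is not given in the sources used here. The authors deposited kallisto's estimated counts per gene symbol, already whole numbers and not normalized, for the 7 libraries, and 0 columns were left unused.

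From these, edgeR 4.0.16 in R 4.3.3 was run for one comparison at a time, with only the 2 groups concerned: filterByExpr (minimum count 10), TMM scaling, the quasi-likelihood test and Benjamini-Hochberg adjustment over all genes tested, at 0.05. The SE is the absolute log2 fold change over the root of F. The CPM shown use TMM factors of the 7 libraries together, and the floor is 3 counts, which covers counting error only. Groups and mouse numbers came from the sample titles, and p-values measure the spread between mice. The fits were tested on counts simulated with known changes, from a mean profile common to both groups and a fixed dispersion. The differences in insulin, mitochondrial DNA-encoded and acinar share seen here were not built in, so that test cannot judge the scaling. Alternatives were RLE factors, DESeq2 1.42.0 (named in the study's methods), no filter, all libraries in one fit, a block on mouse number, leaving out each library, scaling without acinar and Reg genes, a stricter adjusted p, a member minimum of 10 CPM and Ndufa4 moved to complex IV. Scaling by total counts, scaling by totals without insulin, mitochondrial DNA-encoded, acinar and Reg genes, and leaving out members with under 50% unique words were chosen after seeing the data.

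The members and all gene lists were chosen with earlier results of these data known. Named genes are the catalytic and carrier subunits, the alternative isoforms with their partners, members called in KO_db/db against db/db, and per complex the 2 largest called rises and falls against db/+ with a mean of at least 10 CPM. Coordinates and transcript words came from GENCODE M21 (GRCm38), and promoters from RefSeq (GRCm38.p6), in which 70 of 85 members matched. The values of 1 member are not reported here by name; it stays in the counts and medians of the set.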

Additional observations from a re-analysis of the deposited data

How the results depend on the processing

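With 2 or 3 mice in a group, single libraries carried weight. Leaving out each library in turn gave 25 to 40 lower and 1 to 2 higher genes in db/db against db/+ (25 without db/+ mouse 1 or mouse 2, 27 without db/db mouse 2), with medians from -0.443 to -0.292 and a Cyc1 value from -0.331 to 0.143 and a Cycs value from -0.413 to 0.122; of all genes, at most 15.1% were lower. It gave 28 to 40 lower genes in KO_db/db against db/+ (28 without KO_db/db mouse 2 or db/+ mouse 2, 29 without db/+ mouse 1, 31 without KO_db/db mouse 1; 9.42 to 16.4% of all genes), with Cyc1 from -0.362 to 0.0769 and Cox5a from -0.0541 to 0.204, and medians from -0.0878 to 0.0533 in KO_db/db against db/db. Where 1 library was left in a group, it was assumed to vary like the other group. An adjusted p of 0.01 left 1 higher and 21 lower genes in db/db (10.3% and 8.16% of all genes) and 20 lower in KO_db/db against db/+ (6.89%).

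Correlations between the deviations of same-numbered mice from their group means ran from -0.139 to 0.0955. In a group of 2 mice the deviations mirror each other, so these values cannot decide whether the numbers pair mice. With the mouse number as a replicate block, 31 genes were lower and 2 higher in db/db (15.7% and 18.0% of all genes), 28 lower in KO_db/db against db/+ (12.6%), and 0 called in KO_db/db against db/db.

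Scaling by total counts gave 16 higher and 5 lower genes and a median of 0.147 in db/db, 8 lower genes (median -0.173) in KO_db/db against db/+, and 2 lower genes (median -0.281) in KO_db/db against db/db, where 6.55% of all genes were lower. It turned 17 named values in db/db positive by the shift of all genes: Ndufs3 0.353, Ndufs7 0.024, Ndufv1 0.0123, Ndufv2 0.204, Ndufaf7 0.203, Uqcrfs1 0.375, Cyc1 0.416, Cycs 0.37, Cox4i1 0.219, Cox5a 0.365, Cox5b 0.297, Cox6a1 0.273, Atp5a1 0.124, Atp5b 0.248, Atp5c1 0.129, Atp5g1 0.235 and Atp5g3 0.152. In KO_db/db against db/+ it did so for Ndufs3 0.118, Ndufv2 0.0762, Uqcrfs1 0.131, Cyc1 0.0691 and Atp5b 0.0613. Totals without insulin, mitochondrial DNA-encoded, acinar and Reg genes gave 2 lower genes in KO_db/db against db/db (1.12% of all genes), a KO_db/db median of -0.475 against db/+ and a Cox5a value of -0.00783 there. In KO_db/db against db/db, DESeq2 and edgeR without the filter each called 1 higher and 2 lower genes, and a fit of all 7 libraries called 2 lower, where it called 2.28% of all genes lower; the filter changes how many genes are tested, and for the rest the cause was not tested.

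RLE factors and scaling without acinar and Reg genes kept every whole-set count within 1.5 times and every median within 1 SD between libraries. So did a minimum of 10 CPM, and leaving out Ndufb4c and Ndufaf2. Counts by complex could move more. The minimum of 10 CPM leaves out Ndufaf5, Ndufaf6 and Ndufaf8, the complex I assembly factors that fell in db/db.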
